A study of Mus musculus with 148 samples.

Results

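Lef1, Tcf7, Klf2, S1pr1, Il7r and Dapl1 are 6 genes that mark naive and resting memory T cells, and their levels were followed across the T cells of a mouse model of breast cancer lung metastasis. The 6 genes were taken by symbol from 52542 gene rows, and all 6 were found. Their level was the count scaled to 1000000 UMIs (CPM) after unique molecular identifier (UMI) counts had been summed over the cells of one mouse, one tissue and one cell label, and a sum was used where it held 10 or more cells. The T cells were the 6846 cells, of 23425 annotated immune cells, that carried 1 of 7 T cell labels given by the authors. Of 63 samples from 27 mice, 61 held at least 10 T cells.

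EO771 breast cancer cells expressing tdTomato were injected into the right inguinal mammary gland of female mice 8 weeks old that carried a photoactivatable green fluorescent protein (PA-GFP), and the primary tumor was resected 3 weeks later. Normal was lung of control PA-GFP mice (3 mice), Pre-MET was lung of mice that still bore the primary tumor (3 mice), and Relapse-free was lung of operated mice in which no metastasis was found (6 mice). Primary was the mammary tumor itself (4 mice, of which 3 also gave the Pre-MET lungs). MET was tissue dissected from lung metastases (13 samples), and Distal normal tissue was lung away from them in metastasis-bearing mice (14 samples). MET Core (13 samples) and MET Invasive margin (7 samples) were zones of the metastasis-bearing lung marked by local photoactivation and sorted as GFP-positive cells. All mice carried the PA-GFP transgene, and all sorted cells were negative for CD31 and either positive for CD45 or positive for photoactivated GFP. The margin of mouse 17 carried the photoactivation target label NON-MET and its core the gate label PA_CD45, and 2 of the Relapse-free mice included GFP-gated plates.

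In textbook terms, a naive T cell is held in a resting, recirculating state. Lef1 and Tcf7 encode paired transcription factors of the Wnt pathway that keep T cells naive or memory-like, and Klf2 encodes a zinc finger factor of quiescence that drives S1pr1. S1pr1 encodes the sphingosine 1-phosphate receptor that lets T cells leave tissue and lymph nodes, and Il7r encodes the receptor chain for interleukin 7, the survival cytokine of naive and memory T cells. Dapl1 encodes a small protein related to a death-associated protein and is a known transcript of naive T cells. On activation, T cells switch off most of these genes and switch on effector genes such as granzymes and chemokines.

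All 6 are protein-coding genes on separate loci (GENCODE vM21, build GRCm38/mm10). Lef1 spans chr3:131110471-131224356 on the plus strand, and S1pr1 lies on the same chromosome at chr3:115710433-115715072 on the minus strand. Tcf7 spans chr11:52252371-52283014 on the minus strand, Il7r chr15:9505788-9530176 on the minus strand, Klf2 chr8:72319033-72321656 on the plus strand and Dapl1 chr2:59484653-59505020 on the plus strand.

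Since Lef1, Tcf7 and Klf2 are DNA-binding factors, the 250 bases upstream of each annotated start (RefSeq, build GRCm38.p6) were searched on both strands for a TCF/LEF core, CTTTGA or its complement TCAAAG, and for a KLF core, CACCC or its complement GGGTG. The table held 9 such windows for 5 of the 6 genes. Over all 32851 promoter windows of that length, 13.8% held the TCF/LEF letters and 52.0% the KLF letters. Of the 9 windows, the TCF/LEF letters were found in 1, an alternative start inside Lef1 at chr3:131156044-131156293 on the plus strand, with 2 matches. The bases just after that start were in no GENCODE transcript of Lef1, nor were those after the other Lef1 starts, the Il7r start and 1 of the 2 Tcf7 starts. The window of Dapl1, chr2:59484403-59484652 on the plus strand, held neither motif, nor did that of Il7r, whereas Klf2 held 1 KLF match, each Tcf7 window 2 and the 4 Lef1 windows 3, 3, 2 and 1. The window of Dapl1 and the inner window of Lef1, which alone held both motifs, are shown because the tissue comparisons below turned on these members. They read 5′ to 3′ with motif matches in capitals, and a match or its absence is a description of these letters alone.
Dapl1: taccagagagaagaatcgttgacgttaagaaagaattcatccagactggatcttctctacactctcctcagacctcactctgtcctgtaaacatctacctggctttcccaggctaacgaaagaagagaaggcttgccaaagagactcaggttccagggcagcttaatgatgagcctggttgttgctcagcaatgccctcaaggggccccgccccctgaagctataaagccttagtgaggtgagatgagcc
Lef1, inner start: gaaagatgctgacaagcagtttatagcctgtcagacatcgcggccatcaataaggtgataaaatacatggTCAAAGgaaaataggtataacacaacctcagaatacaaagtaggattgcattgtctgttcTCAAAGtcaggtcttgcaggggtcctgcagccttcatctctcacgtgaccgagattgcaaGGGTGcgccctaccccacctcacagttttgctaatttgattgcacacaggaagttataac

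The labels were first checked against markers of T cell lineages. Cd3d, a chain of the T cell receptor complex, averaged 317 to 1385 CPM over the 7 labels, and Foxp3, the factor of regulatory T cells, averaged 351 CPM in T_Treg and at most 18.9 CPM elsewhere. Cells labelled T_CD4_Lef1 held transcripts of both lineages. The CD8 beta chain gene Cd8b1 was detected in every one of their 46 sums (72.9 to 1254 CPM, mean 543). Cd4 averaged 179 CPM there and was at 0 in 4 sums, beside means of 0 to 56.1 CPM in the 4 CD8 labels. In T_CD4_S100a4, Cd8b1 averaged 90.0 CPM and Cd4 194, with Cd4 at 0 in 4 of 27 sums. The name T_CD4_Lef1 is used below as the authors' label and not as a statement of lineage.

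T cell sums of 10 or more cells held 7326 to 1125282 UMIs, and over all 63 samples the medians per group ran from 34 (Distal normal tissue) to 284 (Normal) T cells, so a level at or near 0 in a small sum was not distinguishable from a low level. The Normal plates were the only ones of their sequencing batch, so that batch and group cannot be told apart there, and no well was shared between plates. Of myeloid transcripts in T cell sums, the neutrophil genes S100a8 and S100a9 together gave 8.42 to 59.5 CPM in Primary, 12.2 to 1985 in MET Core, 142 to 374 in Normal and 632 to 1024 in Pre-MET, and their part in the results was not tested.

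Across the 7 labels, Lef1, Tcf7, Il7r and Dapl1 had their 2 highest means in the labels T_CD4_Lef1 and T_CD8_Dapl1, while Klf2 and S1pr1 had their highest mean in T_CD4_Lef1. These levels describe the labels and are not a test, because the labels came from clustering on the same genes. They also pool tissues that the labels did not share evenly, so that label and tissue cannot be told apart in them. All 7 T_Treg sums and 6 of 7 T_CD8_Lag3 sums came from Primary, MET Core or MET Invasive margin, whereas 6 of 9 T_CD8_Dapl1 sums and 5 of 8 T_CD8_Gzma sums came from Normal or Relapse-free lung. Lef1 averaged 425 ± 237 CPM (SD, n = 46 sums) in T_CD4_Lef1 and 359.7 ± 403 (n = 9) in T_CD8_Dapl1. It was lower in T_CD8_Gzmk (156 ± 145, n = 45) and T_CD4_S100a4 (149 ± 179, n = 27), and low in T_Treg (80.3), T_CD8_Lag3 (53.5) and T_CD8_Gzma (30.6), where the medians were 9.69, 0 and 8.13 CPM. Single sums carried the first 2 of these means, the margin of mouse 36 in T_Treg (444 CPM on 9 UMIs) and Relapse-free mouse 7 in T_CD8_Lag3 (326 CPM on 5 UMIs). A single sum, Normal mouse 2 at 1356 CPM on 28 UMIs, also raised the T_CD8_Dapl1 mean, which was 315 CPM in sums of 20 or more cells. The 3 low labels changed order in sums of 20 or more cells (4.84, 16.2 and 37.8 CPM) and in cells of 1000 or more UMIs (34.2, 7.89 and 28.0 CPM). Tcf7 kept nearly the same order, from 388 ± 159 CPM in T_CD8_Dapl1 and 387 ± 204 in T_CD4_Lef1 through 238 in T_CD4_S100a4 and 205 in T_CD8_Gzmk to 45.8 in T_CD8_Gzma. In both genes T_CD4_Lef1 and T_CD8_Dapl1 stood at the top, but the ranges over sums overlapped for Lef1 and, for Tcf7, were apart between T_CD8_Dapl1 (141 to 613 CPM) and both T_CD8_Gzma (0 to 115) and T_Treg (0 to 107).

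Klf2, the quiescence factor, departed from this order. Its mean was 418 ± 372 CPM in T_CD4_Lef1, 378 ± 303 in the cytotoxic T_CD8_Gzma (n = 8), 339.6 ± 143 in T_CD8_Dapl1 and 330.4 ± 345 in T_CD8_Gzmk. The T_CD4_Lef1 and T_CD8_Gzmk means included high sums, 2077 CPM (mouse 31, margin) and 1722 CPM (mouse 34, core) at the most. The T_CD8_Gzma mean included small Normal sums at 1036 CPM (mouse 3, 18 UMIs in 15 cells) and 564 CPM (mouse 2, 6 UMIs). In sums of 20 or more cells it was 254 CPM, below T_CD4_Lef1 (375), T_CD8_Dapl1 (337) and T_CD8_Gzmk (311). Regulatory T cells (69.0 CPM, n = 7) and T_CD8_Lag3 cells (27.8 CPM, n = 7) lay at the low end. Outside T cells, Klf2 was higher still in neutrophils (913 ± 458 CPM in Neut_Ptgs2, n = 29) and in Mon_Ace monocytes (726 ± 408, n = 32), so that T_CD4_Lef1 ranked 5th of all labels. The other 5 genes reached their top mean in a T cell label.

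Of the receptors, S1pr1 averaged 262 ± 165 CPM in T_CD4_Lef1, 168 ± 140.4 in T_CD4_S100a4 and 153 ± 89.4 in T_CD8_Dapl1, with B cells between the first of these and the rest (183 ± 179, n = 30). T_CD8_Lag3 cells were almost without S1pr1, at 3.32 CPM and at 0 in 5 of 7 sums. Il7r was the broadest of the receptors, with 823 ± 463 CPM in T_CD8_Dapl1, 732 ± 304 in T_CD4_Lef1, 680.3 ± 285 in T_CD4_S100a4, 517 ± 495 in T_Treg and 437 ± 338 in T_CD8_Gzmk. The Primary tumors of mice 8 and 10 raised the T_Treg mean (1215 and 1208 CPM), and the other T_Treg sums lay between 93.0 and 456 CPM. Il7r was lowest in T_CD8_Gzma and T_CD8_Lag3, with 89.1 ± 90.7 CPM in T_CD8_Gzma and 30.9 ± 54.8 in T_CD8_Lag3. The latter included the core of mouse 17 at 149 CPM on 12 UMIs. In cells of 1000 or more UMIs the means were 38.9 CPM in T_CD8_Gzma and 43.2 in T_CD8_Lag3.

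Dapl1 was the most restricted of the 6. It averaged 641 ± 499.9 CPM in T_CD8_Dapl1 and 487 ± 293 in T_CD4_Lef1, then 84.0 ± 167 in T_CD4_S100a4 and 77.9 ± 127 in T_CD8_Gzmk. In T_CD8_Gzma and T_Treg it stayed at 8.33 and 7.04 CPM, at 0 in 5 of 8 and in 6 of 7 sums. Of 36 steps between neighbouring labels in these orders, the gap exceeded the larger SD of the pair in 2, from T_CD8_Gzmk to T_CD8_Gzma for Il7r and from T_CD4_Lef1 to T_CD4_S100a4 for Dapl1. All other neighbours did not differ beyond their spread.

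**Figure D1:**
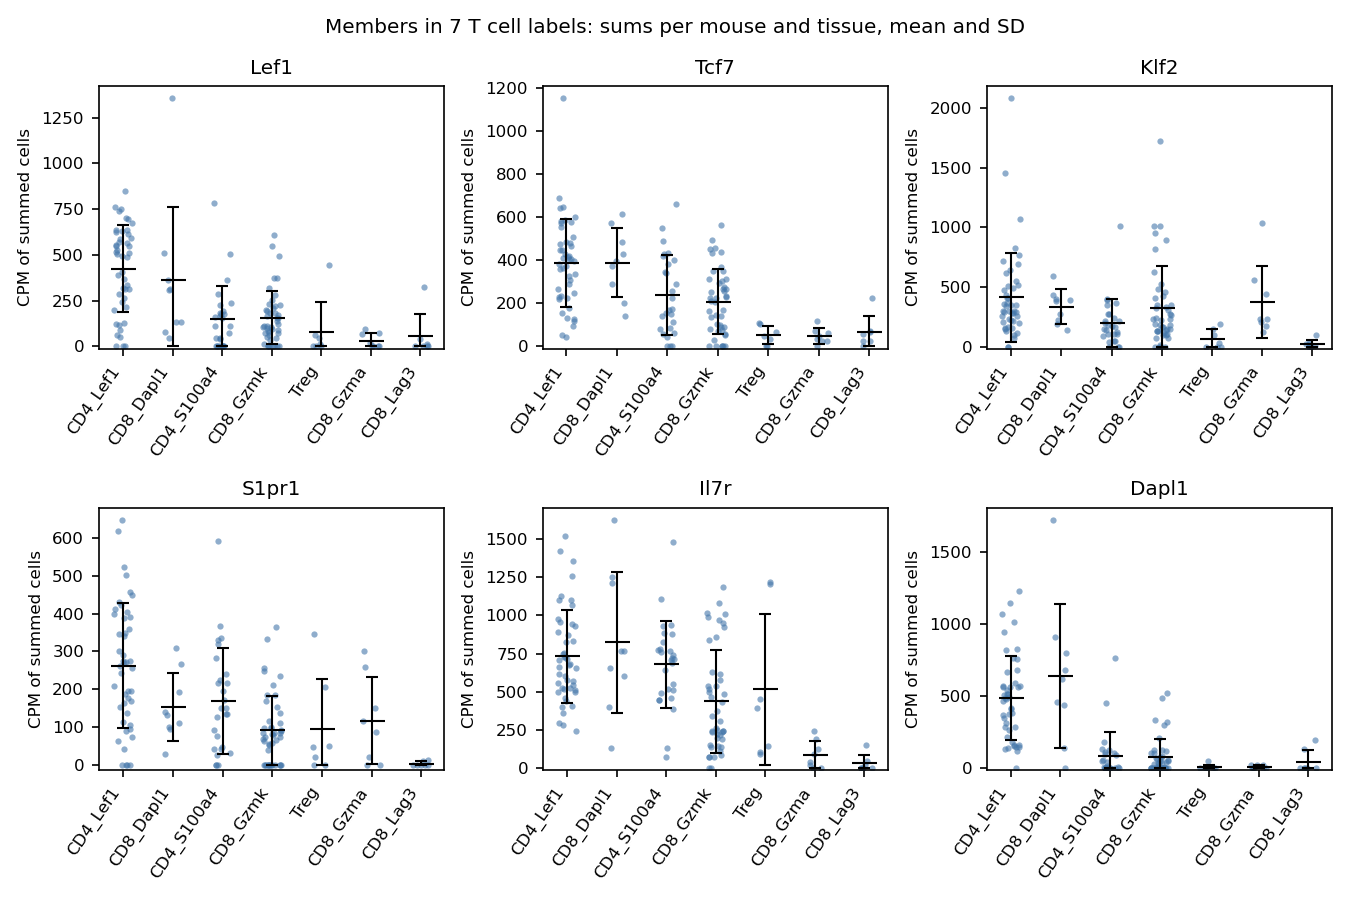
Level of each of the 6 genes (CPM, vertical axis) in the sums of the 7 T cell labels (horizontal axis), with 1 point per mouse and tissue, a horizontal bar for the mean and an error bar for the SD, whose lower end is cut at 0. Dapl1 drops from 487 CPM in T_CD4_Lef1 to 84.0 in T_CD4_S100a4, while Klf2 is at 378 CPM in T_CD8_Gzma (254 in sums of 20 or more cells).

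Within a label, single cells carried few of these transcripts. After each cell had been thinned to 500 UMIs, 14.5% of the 3026 T_CD4_Lef1 cells held a Lef1 UMI, 14.1% a Tcf7, 12.2% a Klf2, 9.22% an S1pr1, 21.2% an Il7r and 11.9% a Dapl1 UMI (median depth 933.5 UMIs before thinning, when the Lef1 share was 22.8%). In the alveolar macrophage label Mac_Cd9, taken as background (439 cells, median 1645 UMIs), the shares were 0.228% for Lef1, 0.228% for Dapl1, 0.911% for Il7r and 4.33% for Klf2. Of the thinned T_CD4_Lef1 cells, 42.3% held none of the 6 genes, 37.8% held 1 and 0.727% held 4. Cells without any of the 6 made up 44.6% in T_CD8_Dapl1, 61.1% in T_CD4_S100a4, 65.6% in T_CD8_Gzmk, 74.8% in T_Treg, 77.9% in T_CD8_Gzma and 87.0% in T_CD8_Lag3. Klf2 was seen in 27.2% of Neut_Ptgs2 cells, a larger share than in any T cell label.

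The genes whose mean level ran most like each member over the 26 labels with at least 3 sums were ranked by Pearson correlation of log2(mean CPM + 1) among 9040 genes, as a description. For Lef1 they were Ehd3 (r = 0.92), Faah (0.92) and Thy1 (0.91), and for Tcf7 they were Ets1 (0.91), Gm19585 (0.89) and Myb (0.89). Dapl1 ran with Tdrp (0.86), Nsg2 (0.85) and Gm43352 (0.85), and S1pr1 with Ablim1 (0.86), Ets1 (0.85) and Tecpr1 (0.83). Il7r had lower top values, with Prmt2 (0.77), Il2ra (0.73) and Tnfsf8 (0.73). Klf2 ran with Rasa3 (0.94), Tcp11l2 (0.86) and Gm1966 (0.86), and its correlation with the other 5 members lay between -0.31 and 0.22, whereas Lef1 correlated with Tcf7 at 0.83 and with Dapl1 at 0.81. The labels share libraries and differ in depth, and no p-value attaches to these values.

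The content of labels differed between tissues. T_CD4_Lef1 and T_CD8_Dapl1 together made up 71.9% ± 7.04 of T cells in Pre-MET, 62.3% ± 5.33 in Relapse-free, 60.2% ± 3.38 in Normal and 56.2% ± 8.03 in Distal normal tissue. In tumor-bearing tissue they made up 44.0% ± 14 in MET, 34.2% ± 4.78 in Primary, 33.5% ± 9.95 in MET Invasive margin and 27.6% ± 10.3 in MET Core. In a sum over all T cells, fewer cells of these 2 labels and less RNA of the gene per cell cannot be told apart, and the levels below are therefore followed by levels within 1 label.

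**Figure D2:**
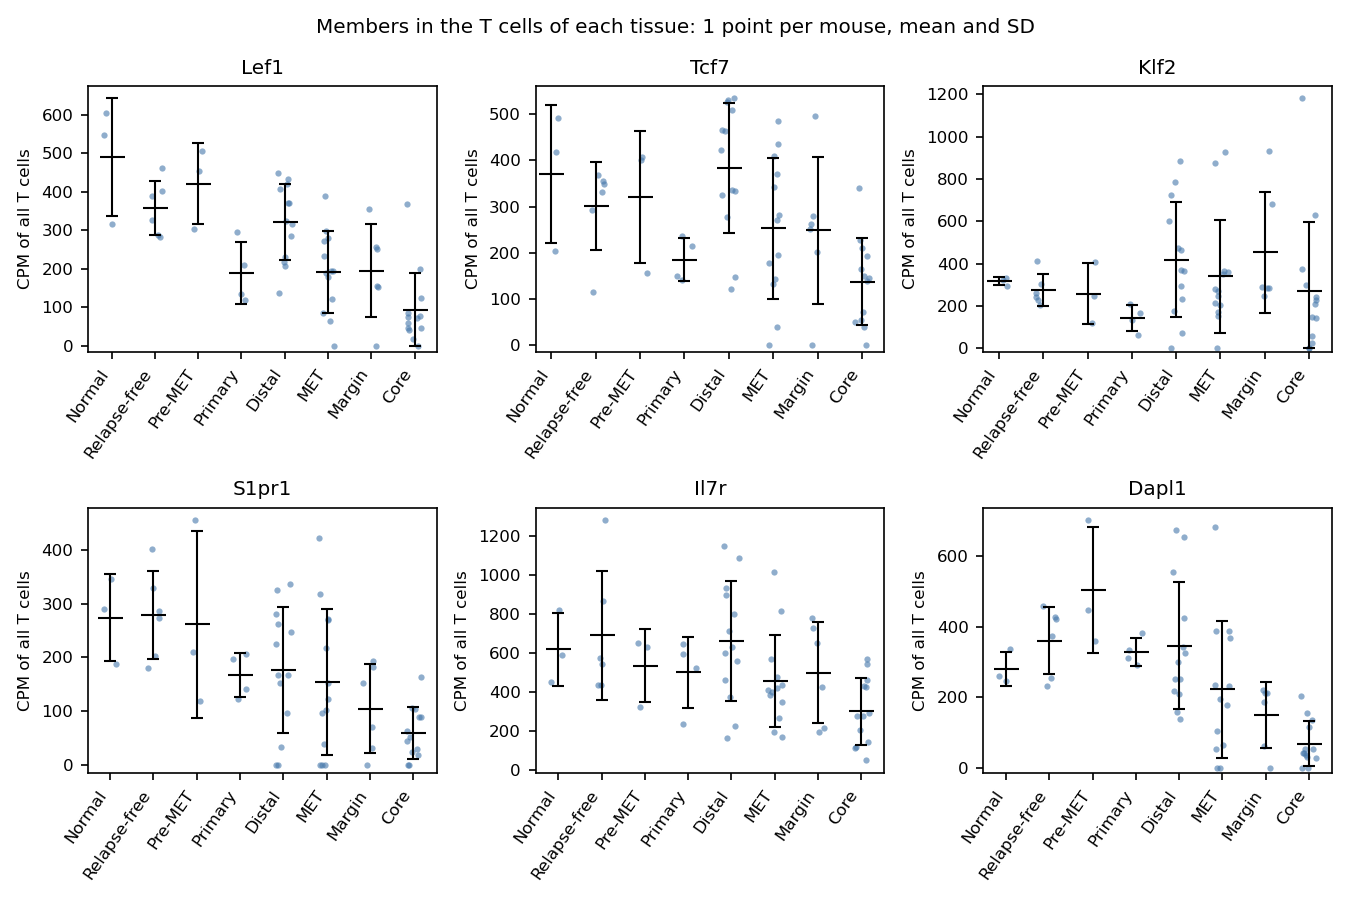
Level of each gene (CPM, vertical axis) in all T cells of each sample by tissue group (horizontal axis), with 1 point per mouse, a bar for the mean and an error bar for the SD, cut at 0. MET Core lies lowest for Lef1, Tcf7, S1pr1, Il7r and Dapl1, and Primary lies lowest for Klf2.

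Of the 6 genes, Dapl1 differed between Primary tumor and MET Core, and it was lower in the core. Its level in T cells was 333.5, 383, 310.2 and 290.2 CPM in the Primary tumors of mice 8, 9, 10 and 38, and between 0 and 204 CPM in the 13 cores, with a median of 42.8. The lowest tumor thus lay above the highest core, and 2 cores were at 0. The log2 difference, core minus tumor, was -2.32 (SE 0.45, edgeR quasi-likelihood adjusted p = 0.00726), and an exact two-sided permutation test gave p = 0.00042, the smallest it can give. In this comparison edgeR called 0.592% of 2197 genes (98 genes were called by DESeq2 against 13 by edgeR), and 0.637% of genes did not overlap between the groups. The tumors alone could meet the filter on low counts, so that Dapl1 could enter the test through the group where it was high. These shares are therefore not a fair background. Dapl1 was the only member called, of 6 that passed the filter on low counts. Without the tumor of mouse 9 or of mouse 10 its adjusted p was 0.0522 and 0.082, and 2 and 1 genes were called, whereas without mouse 8 or 38 the call of Dapl1 was kept, among 10 and 7 genes.

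The site, the mice and most of the batches differed between Primary and MET Core, since the tumor grew in the mammary gland and the core in the lung. Per the methods, tumors and lungs were also dissociated with different programs and taken at different stages. Immune cells of tumors were sorted on CD45 and most of those of cores on photoactivated GFP. These differences cannot be told apart from that of the tissue. Among mice with a plate in the 1 batch that held both, Dapl1 stood at 334 CPM in 1 tumor (mouse 8) and averaged 89.5 CPM in 2 cores. That direction was already fixed by the ranges of the groups, which did not overlap. T cells of Primary were also deeper, at a median of 1243 to 2412 UMIs per cell against 625 to 1765 in MET Core.

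The receptor S1pr1 was 123 to 206 CPM in the 4 tumors and 0 to 163 CPM in the cores (median 52.1), so that the groups overlapped. Its log2 difference was -1.48 (SE 0.47, edgeR adjusted p = 0.0805, DESeq2 adjusted p = 0.0398, and up to 0.361 over the other edgeR alternatives), and its exact permutation p was 0.0021. Lef1 gave -1.20 (edgeR adjusted p = 0.206), Il7r -0.84 (0.269) and Tcf7 -0.48 (0.706), and Klf2 gave 0.79 in the other direction (0.618). None of these 5 passed the threshold with edgeR. Of the egress and homing genes, Ccr7, the chemokine receptor for entry into lymph nodes, gave 0.13 (edgeR adjusted p = 0.957), and Cd69, which retains cells in tissue, 0.35 (0.744).

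Dapl1 also differed inside the T_CD4_Lef1 label, that is, among cells given the same name in both tissues. It stood at 1143, 1017, 1229.5 and 946 CPM in the 4 tumors (28, 89, 82 and 102 UMIs of the gene). In the 8 cores with enough cells it was 0 at the lowest, 154 at the median and 562 at the highest, on 58 UMIs in all. No core reached the level of any tumor, as for 1.24% of the 404 genes tested, of which edgeR called 0.99%. Here too the tumors alone could meet the filter on low counts, and these shares are not a fair background. The log2 difference was -2.28 (SE 0.51, edgeR adjusted p = 0.0238). The call was lost without the tumor of mouse 9 (adjusted p = 0.076), 10 (0.114) or 38 (0.0785), and in sums of 20 or more cells (0.128). Cd8b1 in these cells averaged 525 ± 273 CPM in Primary and 551 ± 317 in MET Core, and Cd8a averaged 304 ± 154 and 376 ± 213. Cd4 went the other way, at 198 ± 92.7 and 140 ± 149 CPM, with 2 of the 8 cores at 0. The part of lineage content in the result was not tested. The neutrophil genes S100a8 and S100a9 together gave 0 to 11.4 CPM in these cells of Primary and 11.6 to 2950 in those of MET Core, so that they did not overlap either, and their part in the result was not tested.

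Within the same label Lef1 was 694, 526, 615 and 288 CPM in the tumors and 0 to 487 in the cores, with a median of 104. The ranges overlapped, and the difference of -1.58 was not called (SE 0.60, edgeR adjusted p = 0.223). Il7r, by contrast, gave 0.32 (adjusted p = 0.782), and Tcf7, Klf2 and S1pr1 did not pass the filter on low counts. Pre-MET lungs of mice 8, 9 and 10 gave 1069, 593 and 469 CPM of Dapl1 in this label, beside the 1143, 1017 and 1229.5 CPM of their Primary tumors.

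**Figure D3:**
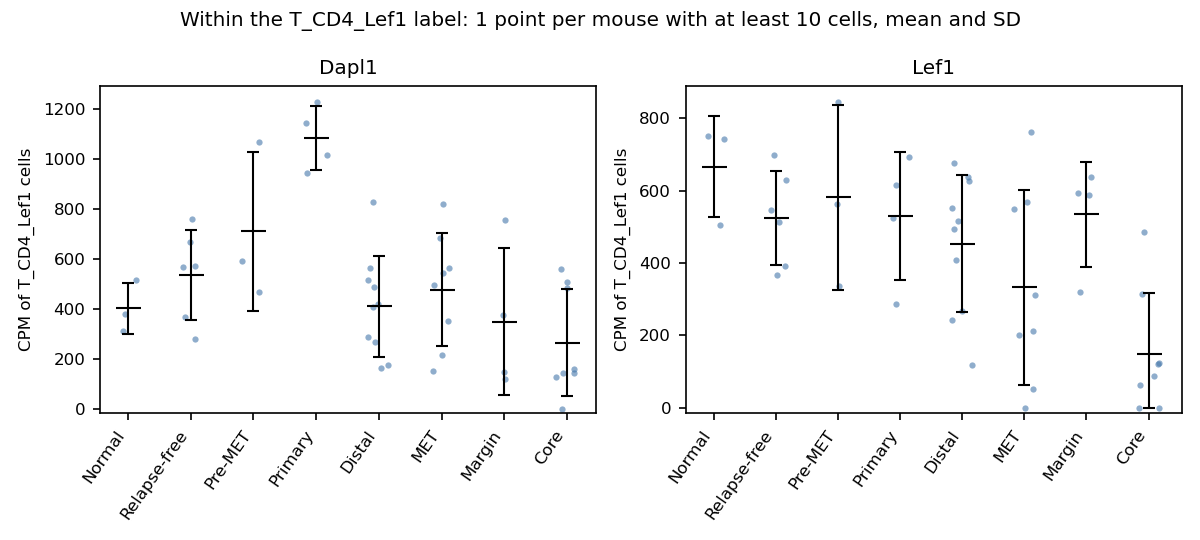
Levels of Dapl1 and Lef1 (CPM, vertical axis) within cells labelled T_CD4_Lef1 by tissue group (horizontal axis), with 1 point per mouse, a bar for the mean and an error bar for the SD, cut at 0. For Dapl1 the 4 Primary tumors lie between 946 and 1229.5 CPM and the 8 MET Core sums between 0 and 562.

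The level of all T cells was also set beside the level that its content of labels would give, taking each label at its mean over all sums. Dapl1 in Primary was 329 CPM against 179 so calculated, above it in 4 of 4 tumors, whereas in MET Core it was 68.8 against 171 and lay below it in 13 of 13 cores. Lef1 in MET Core was 93.0 against 186 CPM (below in 11 of 13), S1pr1 60.2 against 122 (below in 12 of 13) and Tcf7 137 against 205 (below in 11 of 13). Klf2 in MET Core was 273 against 253 CPM, below in 9 of 13. Il7r in MET Core was 302 against 462 CPM, below in 10 of 13. In Normal lung Lef1 was 489.6 against 302 CPM, above in 3 of 3, whereas Dapl1 (281 against 333) and Klf2 (318 against 364) lay below in 3 of 3, and the other 3 genes were above in 2 of 3. In Primary, Klf2 (144 against 239) and Tcf7 (185 against 212) lay below in 3 of 4, Lef1 and Il7r in 2 of 4 and S1pr1 in 1 of 4. The mean over sums includes the samples themselves, and the gap was not tested.

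**Figure D4:**
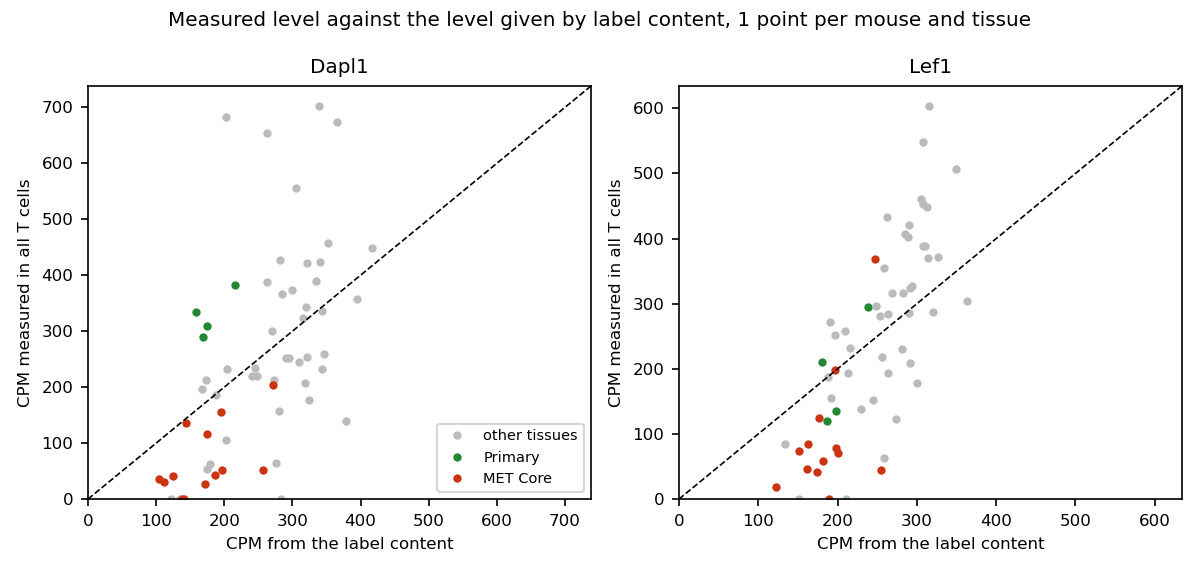
Observed levels of Dapl1 and Lef1 in all T cells (CPM, vertical axis) against the level calculated from the sample's content of T cell labels (CPM, horizontal axis), with 1 point per sample, green for Primary, red for MET Core, grey for the other groups and a dashed line of equality. In the Dapl1 panel all 4 green points lie above the line and all 13 red points below it.

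Between MET Core and MET Invasive margin, compared within the 5 mice that gave both zones (17, 26, 28, 31 and 36), all 6 genes were higher in the margin in 5 of 5 mice, but edgeR called none of them and DESeq2 called Dapl1. For Dapl1 the core gave 52.0, 116, 42.0, 35.8 and 42.8 CPM in these mice and the margin 220.4, 213, 213, 62.1 and 186 CPM. The margin was higher in each pair, although the ranges overlapped through the margin of mouse 31. The difference, margin minus core, was 1.91 on the log2 scale (SE 0.43, edgeR with mouse as a block, adjusted p = 0.0735, and DESeq2 adjusted p = 0.0407), and over the other edgeR alternatives the adjusted p ran up to 0.999. With 5 pairs the exact two-sided sign-flip test cannot go below p = 0.0625, the value that each of the 6 genes reached. Of the 1859 genes tested, 4.25% were higher in the margin in all 5 pairs, edgeR called 0.161%, and 0.621% of all 21085 genes with a count were higher in all pairs.

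Lef1 was 71.4, 58.1, 42.0, 17.9 and 199 CPM in the cores of mice 17, 26, 28, 31 and 36 and 152, 354, 251, 155 and 258 CPM in their margins. The margin of mouse 26, the highest value, rested on 5 UMIs of Lef1. The fitted difference was 1.39 (SE 0.43, adjusted p = 0.589). Il7r gave 0.70, Tcf7 0.54 and Klf2 0.52, and S1pr1, which did not pass the filter, gave 0.92 without it. Ccr7 was higher in the margin in 4 of 5 mice (0.48) and Cd69 lower there in 4 of 5 (-0.77), neither of them called. Dapl1 could not be fitted without mouse 17 or 36, as it then did not pass the filter. Both zones of each mouse were sequenced in the same batch. The core and margin of mouse 17 carried other gate and target labels than the rest, and the part of this in the values was not tested. That all 6 genes were higher in the margin in the remaining 4 mice follows from the count over all mice and is no check on it.

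S100a8, a neutrophil transcript, was itself 1 of the 3 genes called in this comparison, and S100a8 with S100a9 gave 1985, 552, 105, 53.7 and 12.2 CPM in the core T cells of these 5 mice and 3371, 2693, 1102, 124 and 51.6 CPM in the margin. The pair of transcripts was thus higher in the margin in 5 of 5 mice, as the 6 members were, and its part in the members' values was not tested. Within the T_CD4_Lef1 label, 3 mice gave both zones, and Lef1 averaged 191 CPM in the core and 515 in the margin, higher in 3 of 3, as were 14.5% of the genes tested. S1pr1 was also higher in 3 of 3 (151 and 300.2 CPM), Tcf7 (304 and 344) and Il7r (853 and 771) in 2 of 3 and Klf2 (341 and 322) in 1 of 3. Dapl1 there was 144 in the core and 121 in the margin of mouse 17, 146 and 757 in mouse 28 and 162 and 376 in mouse 36. The shared direction of all 6 genes in all T cells was thus not seen within this label. No gene was called in this label among 1554 tested with edgeR (0.0%), with Lef1 at an adjusted p of 0.87. In T_CD8_Gzmk cells, where 4 mice gave both zones, no member had a lower mean in the margin than in the core. Of the members, 3 passed the filter there and 1 had an unadjusted edgeR p under 0.05. None was called, nor was any of the 1711 genes tested (0.0%).

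**Figure D5:**
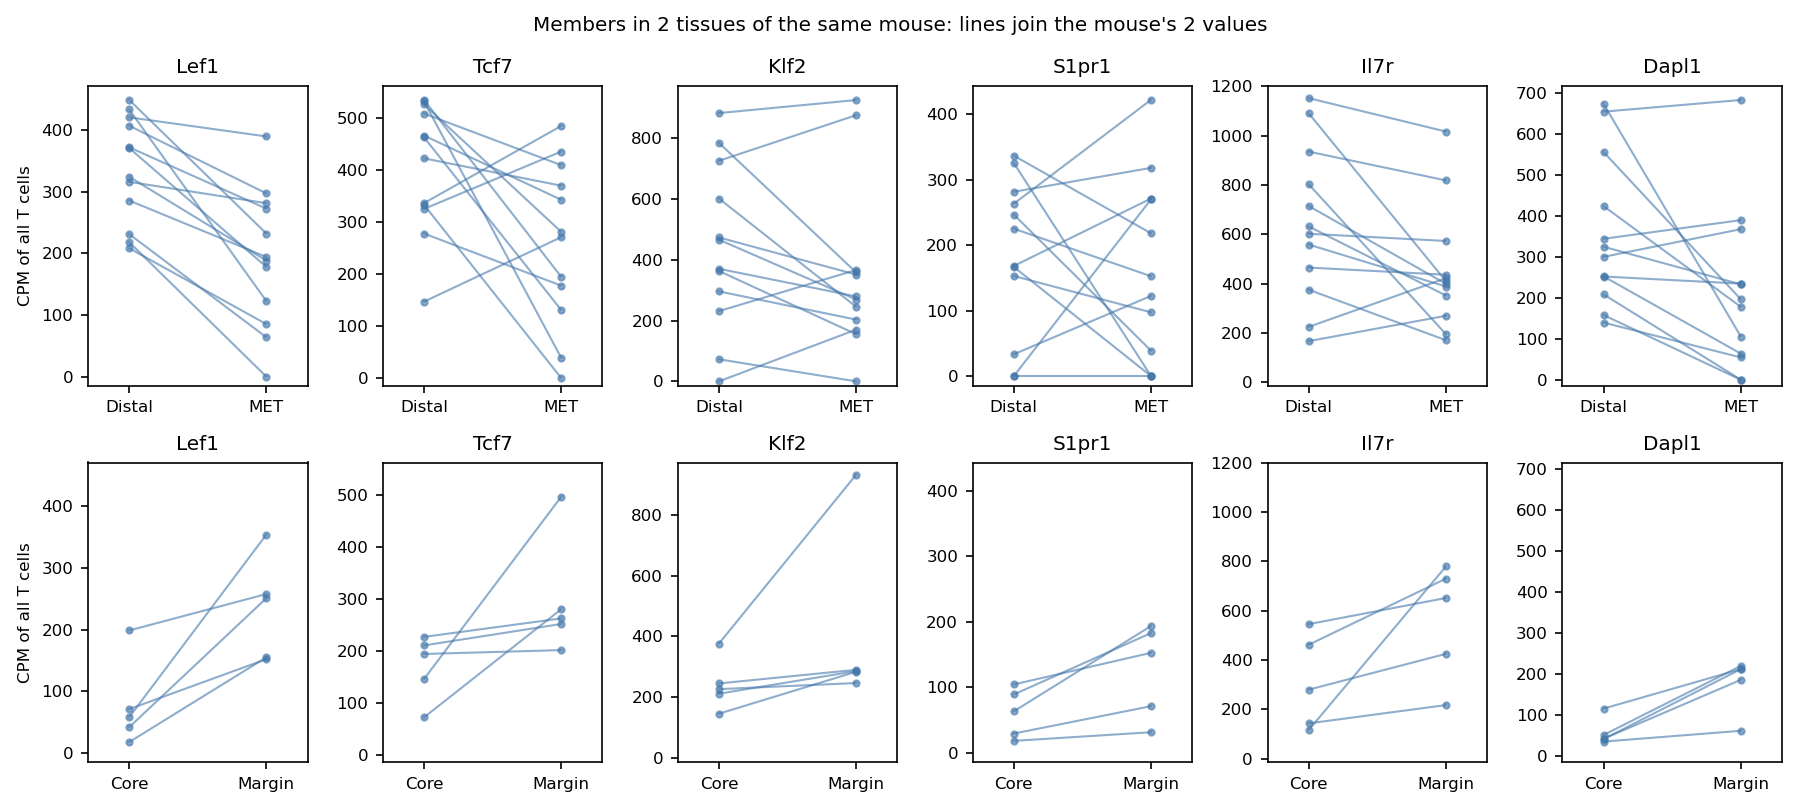
Levels (CPM, vertical axis) of the 6 genes in all T cells of the 2 tissues of the same mouse, each line joining 1 mouse, for Distal normal tissue against MET (12 mice) and MET Core against MET Invasive margin (5 mice). Lef1 is lower in MET in 12 of 12 mice, and all 6 genes are higher in the margin in 5 of 5.

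Metastases were next compared with the Distal normal tissue of the same lungs in 12 mice. Lef1 was lower in MET in 12 of 12 mice. It ranged from 208 to 449 CPM in Distal normal tissue (median 347) and from 0 to 389 CPM in MET (median 191). The ranges overlapped between mice although every pair moved the same way, and an exact two-sided sign-flip test gave p = 0.00049, the smallest it can give with 12 pairs. Among 19248 genes with a count, Lef1 was the only one lower in MET in all 12 pairs (0.0052%). A gene at 0 in any Distal sum could not meet this rule, and these sums went down to 8915 UMIs (mouse 32). Genes of low count were thus barred in advance, and the share is not a fair background. Lef1 did not pass edgeR's filter on low counts here, and without the filter its log2 difference, MET minus Distal, was -0.87 (SE 0.40) with an adjusted p of 1. The counts behind it were 504 UMIs in the Distal sums and 148 in the MET sums. Mouse 36 held 948909 T cell UMIs of all genes in its Distal sum, and each other Distal sum of these pairs at most 77054. The first total thus rested mostly on 1 mouse. The neutrophil genes S100a8 and S100a9 together had medians of 526 CPM over all Distal T cell sums and 442 over those of MET. Within pairs they were higher in MET in mice 27 and 30 and lower in the others, and their part was not tested.

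Of the other members, Il7r was lower in MET in 10 of 12 mice (means of 643 and 454 CPM, exact p = 0.021), Dapl1 in 9 of 12 (357 and 209 CPM, p = 0.0122) and Tcf7 in 9 of 12 (406 and 261 CPM, p = 0.0371). Klf2 was lower in 8 of 12 (439 and 350.1 CPM, p = 0.138) and S1pr1 in 6 of 12 (183 and 159 CPM, p = 0.629). Ccr7 (403 and 342 CPM) and Cd69 (503 and 390 CPM) were each lower in 8 of 12, and neither was called. In all, 30 such exact tests were made over 5 comparisons and are not adjusted, and 6 had a p under 0.05. Il7r alone passed the filter, with -0.32 (SE 0.23, edgeR adjusted p = 0.716), and edgeR called 0.27% of 370 genes. Grouped by sequencing batch, Lef1 had means of 282 in Distal and 125 CPM in MET in the first batch, 391 and 270.4 in the second and 389 and 224 in the third. Each mean took the whole sums of the mice with a plate in that batch. As Lef1 was lower in MET in every pair, the direction of these means adds no separate support.

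Inside the T_CD4_Lef1 label the 12 pairs shrank to 6, and Lef1 averaged 451 CPM in Distal normal tissue and 356 in MET, lower in 4 of 6. The log2 difference was -0.48 (SE 0.46, edgeR adjusted p = 0.978). Dapl1 gave 537 and 508 CPM, lower in 3 of 6, and Tcf7 526 and 355 CPM, lower in 5 of 6. No gene was called with edgeR among 311 tested (0.0%), and 2 with DESeq2.

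Lungs that still faced a primary tumor were compared with control lungs, the earliest stage sampled. Dapl1 in T cells was 245, 337 and 260.1 CPM in the 3 Normal lungs and 703, 448 and 358 CPM in the 3 Pre-MET lungs. The groups did not overlap, which held for 23.9% of the 3218 genes tested, and edgeR called 1.74% of genes. Its log2 difference of 0.85 (SE 0.28) was not called (adjusted p = 0.165), and an exact permutation test of 3 against 3 cannot go below p = 0.1, the value found. Lef1 (-0.22), Tcf7 (-0.17), Klf2 (-0.29) and Il7r (-0.19) lay on the other side with adjusted p from 0.779 to 0.889, and S1pr1 at -0.0042. Ccr7 was lower in Pre-MET (268 against 433 CPM) without being called, with -0.66 (adjusted p = 0.24), and Cd69 gave -0.041 (0.976). S100a8 with S100a9 moved with these groups, at 142 to 374 CPM in the Normal T cells and 632 to 1024 in Pre-MET, and the whole list of myeloid markers summed to 767 to 1134 and 1490 to 1800 CPM. Neither overlapped between the groups, and their part in the differences above and in those that follow was not tested.

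In the same comparison 2 effector genes were called lower in Pre-MET in the sums over all T cells. They were Ccl5, a chemokine of cytotoxic T cells, by 1.52 on the log2 scale (SE 0.30, edgeR adjusted p = 0.0352), and Id2, a transcription factor of effector differentiation, by 1.56 (SE 0.34, adjusted p = 0.0424). T_CD8_Gzma cells numbered 66 of 818 T cells in Normal and 6 of 290 in Pre-MET, and T_CD8_Gzmk cells 155 and 36. Fewer cells of these labels and less RNA of the 2 genes per cell cannot be told apart here. Both calls were lost without any 1 of the 3 Normal mice, without Pre-MET mouse 8 or 9 and in cells of 1000 or more UMIs (adjusted p of 0.0564 to 0.224), and without Pre-MET mouse 10 Ccl5 was called (0.043) and Id2 was not (0.075). Between Normal and Relapse-free lungs edgeR called none of 6654 genes (0.0%), against 335 at an unadjusted p under 0.05 and 8 called by DESeq2. Lef1 averaged 489.6 ± 153 CPM in Normal (n = 3) and 358 ± 70.8 in Relapse-free (n = 6), with a log2 difference of -0.48 (adjusted p = 0.999). Dapl1 averaged 281 ± 49.1 and 361 ± 95.6 CPM (0.35), while Tcf7 gave -0.23, Klf2 -0.21, S1pr1 -0.041 and Il7r 0.15. Ccr7 gave -0.0062 and Cd69 0.72 (edgeR adjusted p = 0.986), and neither was called.

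Inside the T_CD4_Lef1 label, Dapl1 averaged 403 ± 103 CPM in Normal and 711 ± 317 in Pre-MET, with overlapping ranges and a log2 difference of 0.76 (edgeR adjusted p = 0.341). Lef1 there was 667 and 582 CPM (-0.26), and edgeR called none of 1952 genes (0.0%), against 266 at an unadjusted p under 0.05 and 9 called by DESeq2. Against Relapse-free lungs, Lef1 in this label gave 667 and 525 CPM (-0.39) and Dapl1 403 and 537 (0.39), both with an edgeR adjusted p of 0.999. None of 4487 genes was called by edgeR (0.0%), 212 had an unadjusted p under 0.05 and DESeq2 called 2.

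In the 5 comparisons within T_CD8_Gzmk cells, edgeR called none of the 225 to 1711 genes tested (0.0%), and DESeq2 called 4 in Normal against Pre-MET and 34 in Primary against MET Core. Over the 15 fits, 61 of 90 combinations of a member with a fit passed the filter on low counts, and 2 were called, both of them Dapl1 in Primary against MET Core.

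The other genes of the pathway were counted in 4 lists, in all T cells where no label is named. Of 20 genes of naive state and quiescence, 15 were tested in T cells of Primary against MET Core and none was called. Their median log2 difference was -0.79, beside -0.06 over all genes tested, and 11 of the 15 were negative. Of 10 genes of interleukin 7 signalling, 7 were tested, none was called, and all 7 were negative with a median of -0.29. Of 8 egress and homing genes, 7 were tested there with a median of -0.29, and of 15 effector genes 11 were tested with a median of 0.11, again without a call. Within T_CD4_Lef1 cells the naive list had a median of 0.13 (7 tested, 4 positive), the egress list 0.37 and the interleukin 7 list -0.085. Within T_CD8_Gzmk cells these were 0.07 (6 tested, 3 positive), 0.12 and -0.39. The negative median of the naive list was thus not seen within these labels, where fewer genes were tested.

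In MET Core against MET Invasive margin, the naive list had a median of 0.23 (13 of 20 tested), the egress list 0.31 (8 of 8) and the interleukin 7 list 0.17 (4 of 10), beside -0.01 over all genes. The effector list lay at -0.58 (8 of 15), and no gene of the 4 lists was called. Within T_CD4_Lef1 cells the naive, egress, interleukin 7 and effector lists had medians of 0.06, 0.05, -0.02 and -0.80. Within T_CD8_Gzmk cells they had 0.15, 0.01, 0.06 and 0.22. In Distal normal tissue against MET few were tested, 3 of the naive list with a median of -0.06, 2 of the egress list with -0.25, 3 of the interleukin 7 list with -0.22 and 4 of the effector list with 0.46, beside 0.01 over all genes. In Normal against Pre-MET the naive list had a median of -0.23 (16 of 20), the egress list -0.14 and the interleukin 7 list -0.24, and the effector list, which held both called genes, -1.35 (7 of 15), beside -0.06. In Normal against Relapse-free the naive, egress, interleukin 7 and effector lists had medians of -0.10, -0.03, 0.44 and 0.19, beside 0.01.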

How the data were processed

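Each well of a plate received 1 sorted immune cell, and RNA was tagged with UMIs before pooling and sequencing. Per the labels and methods, the authors demultiplexed with bcl2fastq 2.15.0.4, mapped to mm10 with HISAT, counted UMIs in UCSC exons, kept cells of at least 500 UMIs and annotated metacells. The deposited values are raw counts of UMIs per gene and well, from 148 plates in 12 batches, with 592 wells left without a cell.

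Cells labelled Erythrocytes, Outlier or Tumor were left out. Counts were summed per mouse, tissue and label (at least 10 cells). The methods name a gate against doublets in the sort, and none were removed from the counts here. Fits used edgeR 4.0.16 (R 4.3.3) with TMM, filterByExpr, a quasi-likelihood F test and Benjamini-Hochberg adjustment over all genes tested, called under 0.05. Only the groups compared were included, at least 3 sums each. The mouse was a block for Distal normal tissue against MET and MET Core against MET Invasive margin, since both tissues came from the same animals (deviations of the same mouse correlated at a mean r of 0.091 and 0.228, and of different mice at -0.0067 and -0.053). The SE is the log2 difference divided by the root of F. DESeq2 1.42.0 was an alternative, as were no filter, no block (with the unpaired samples added), at least 1000 UMIs per cell, at least 20 cells per sum and leaving out 1 replicate. Replicates were not left out in Distal normal tissue against MET, nor were the cores in Primary against MET Core. The exact permutation tests were added after the data had been seen. On simulated counts for Primary against MET Core, edgeR recovered 24% of log2 changes of 1 and 80.9% of changes of 2, with 2 unchanged genes called. For MET Core against margin it recovered 8.24% and 65.4% with 0 unchanged genes called, and for Distal normal tissue against MET 85.3% and 100% with 8 called. In the last of these, 75 and 69 of only 320 genes had been changed, beside 75 and 68 of 1926 in Primary against MET Core. The recovered shares are therefore not comparable between them. In Distal normal tissue against MET 1 of the 6 members passed the filter, and recovery at the counts of the others was not tested.

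The members and the 4 lists were chosen with earlier results of these data known. By the rule for named genes, all 6 members and Ccr7 and Cd69 of the lists were named in each comparison of all T cells (a further list gene is not reported here), with fewer within a label, list genes where called, and the 3 genes most alike each member. Cd3d, Cd8a, Cd8b1, Cd4 and Foxp3 were lineage markers.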

Additional observations from a re-analysis of the deposited data

Results flagged for a closer look

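Of 78 groups of 4 to 10 sums, 7 held a member value far from the others of its group, and chance would mark about 1 in 20. Klf2 accounted for 3 of them. In T_CD4_Lef1 cells it stood at 2077 CPM in the margin of mouse 31 (14 UMIs of Klf2 in 11 cells, the next value being 434 CPM) and at 1458 CPM in the core of mouse 34 (23 UMIs in 23 cells, next 523). In T_CD8_Gzmk cells it stood at 1011 CPM in the margin of mouse 31 as well (12 UMIs in 18 cells, next 350.4). The core of the same mouse 31 gave 895 CPM of Klf2 in that label. The other 4 were Tcf7 in all T cells of Relapse-free mouse 29, at 115 CPM on 4 UMIs against 292 in the nearest, Lef1 in T_CD4_Lef1 cells of the margin of mouse 17, at 319.6 CPM against 589, S1pr1 in T_CD4_Lef1 cells of the core of mouse 27, at 523 CPM on 4 UMIs, and Dapl1 in T_CD8_Gzmk cells of the MET sample of mouse 24, at 521 CPM on 14 UMIs in 10 cells against 85.1. In all T cells of Distal normal tissue, Klf2 was 602, 785, 883 and 726 CPM in mice 31 to 34. The other mice there gave at most 474 CPM. The cores of mice 31, 32 and 34 gave 376, 631 and 1180 CPM, above all other cores. The margins of mice 31 and 33 gave 932 and 683 CPM, above the others. In MET, mice 33 and 34 gave 926 and 876 CPM, but mice 31 and 32 gave 245 and 358. High Klf2 thus lay mostly in mice 31 to 34, and the cause was not tested.

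Cells that the authors annotated as Erythrocytes, Outlier or Tumor (595 cells, left out above) also held the 6 genes. Summed over these cells, Klf2 stood at 282 CPM, Il7r at 65.1, S1pr1 at 63.6, Tcf7 at 46.1, Lef1 at 36.5 and Dapl1 at 18.3 CPM. In the 592 wells left without a cell, 8490 UMIs held 4 of Klf2, 2 of Il7r, 2 of Dapl1 and 1 of Lef1.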

How the results depend on the processing

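Of 477 values of a member under an alternative, 428 kept the direction and side of the threshold, 39 turned direction, 6 lost a call, 2 gained one with DESeq2 and 2 uncalled ones had an unadjusted exact p under 0.05, and the cause was not tested. The 2 calls of Dapl1 in Primary against MET Core had log2 differences of -2.34 to -2.14 in T cells and -2.37 to -2.13 in T_CD4_Lef1 cells when a tumor was left out, and -2.32 in T_CD4_Lef1 sums of 20 or more cells, where it was not called. Depth limits the small sums most, and with 1000 UMIs or more per cell 6 of the 15 fits had too few sums.

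The number of genes called moved with the tool. In T cells DESeq2 called 114 genes in Normal against Pre-MET (56 with edgeR), 8 in Normal against Relapse-free (0), 3 in Distal normal tissue against MET (1) and 98 in Primary against MET Core (13). In T_CD4_Lef1 cells it called 9, 2, 2 and 18 in these 4 comparisons (0, 0, 0 and 4), and in T_CD8_Gzmk cells 4 in Normal against Pre-MET and 34 in Primary against MET Core (0 and 0). Without a filter on low counts edgeR called in T cells 20 genes in Normal against Relapse-free, 5 in Distal normal tissue against MET and 342 in Primary against MET Core, in T_CD4_Lef1 cells 9 in Normal against Pre-MET, 6 in Normal against Relapse-free and 15 in Primary against MET Core, and in T_CD8_Gzmk cells 22, 3 and 16. In cells of 1000 or more UMIs the T cell counts were 0 in Normal against Pre-MET, 0 in Distal normal tissue against MET, 0 in MET Core against MET Invasive margin and 6 in Primary against MET Core. In sums of 20 or more cells, 0 were called in T cells of Distal normal tissue against MET and 1 in T_CD4_Lef1 cells of Primary against MET Core. The fits with no replicate block for the mouse also took in the unpaired samples. In T cells these made 13 against 13 sums for Distal normal tissue against MET and 13 against 6 for MET Core against MET Invasive margin. Block and samples thus changed together. In these fits 0 genes were called in both comparisons of T cells (1 and 3 with the block and pairs only). No call of a member that could be fitted both ways changed. Lef1 and Dapl1 of T cells in MET Core against MET Invasive margin were not fitted in the larger set. Dapl1 of T_CD4_Lef1 cells turned to 0.27 in Distal normal tissue against MET.

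Leaving out 1 mouse at a time gave 0 to 42 called genes in T cells of Normal against Pre-MET and 0 to 3 in Normal against Relapse-free. It gave 0 to 5 in MET Core against MET Invasive margin and 1 to 10 in Primary against MET Core. In T_CD4_Lef1 cells the counts were 0 to 1, 0 to 3, 0 to 0 and 0 to 8 in the same order. In Primary against MET Core only tumors were left out and no core, and in Distal normal tissue against MET no mouse was left out. All values that turned direction were uncalled. In cells of 1000 or more UMIs they were, in Normal against Pre-MET, Lef1 0.26 and S1pr1 0.49 in T cells and Lef1 0.35, S1pr1 0.39 and Il7r 0.11 in T_CD4_Lef1 cells, and also S1pr1 of T_CD4_Lef1 cells in Normal against Relapse-free (-0.12), Il7r in Distal normal tissue against MET (0.11) and Klf2 in MET Core against MET Invasive margin (-0.011). S1pr1 in Normal against Relapse-free gave 0.026 from mean CPM, and Klf2 of T_CD4_Lef1 cells in Distal normal tissue against MET gave -0.033 without a filter. With 1 mouse left out, the log2 differences of T cells in Normal against Pre-MET spanned -0.48 to 0.11 for Tcf7, -0.73 to 0.31 for S1pr1 and -0.38 to 0.0304 for Il7r, and in Normal against Relapse-free -0.20 to 0.12 for S1pr1 and -0.11 to 0.36 for Il7r. In T_CD4_Lef1 cells they spanned -0.61 to 0.012 for Lef1, -0.60 to 0.12 for Tcf7 and -0.90 to 0.25 for S1pr1 in Normal against Pre-MET, -0.48 to 0.21 for Tcf7, -0.36 to 0.0201 for Klf2, -0.11 to 0.32 for S1pr1 and -0.14 to 0.41 for Il7r in Normal against Relapse-free, and -0.046 to 0.24 for Tcf7, -0.36 to 0.076 for Klf2 and -0.50 to 0.091 for Il7r in MET Core against MET Invasive margin. Of the alternatives for labels and comparisons, 10 were not run for too few sums.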
